A study of Mus musculus with 6 samples.

Results

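The Sox and the Klf/Sp genes encode a pair of large transcription factor families. The members described here are the autosomal protein-coding genes whose symbol is Sox or Klf followed by a digit, together with Sp1 to Sp9. That gave 43 genes, 18 Sox and 25 Klf/Sp (16 Klf and 9 Sp), of 20665 autosomal protein-coding genes in the RefSeq table. Sites bound by COUP-TFII, the orphan nuclear receptor encoded by Nr2f2, had been mapped by ChIP-seq (sequencing of DNA recovered with an antibody) in mesonephroi of CD-1 mouse embryos at E14.5. Chromatin came from pooled tissue, and the groups are XX (female) mesonephroi with 2 samples, XY (male) mesonephroi with 2 samples and input pooled from XX and XY with 2 samples. No group carries a mutation or a treatment in the labels. The titles, the tissue and the antibody entries name COUP-TFII (NR2F2) and mesonephroi, whereas a line of the extraction text names RUNX1 and fetal ovaries.

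Both authors' peak lists, 1 per sex, hold positions (mm10) without a height, score or p-value. The female list has 11175 peaks and the male list 9846, each 300 bp wide, and 7483 peaks were shared (at least 1 bp in common). Because a list covers both replicates of a sex, no count below has a spread between replicates and no test between the sexes was possible. The depth behind each list is unknown, so a missing peak may lie below the authors' threshold. A peak went to the protein-coding gene whose body lay nearest to its centre, up to 100 kb away, and a "place" is a shared pair, a female-only peak or a male-only peak. Positions and distances of shared places are those of the female peak. The mesonephros is a mixed tissue, so a peak does not say in which of its cell types COUP-TFII was bound, and a peak list holds no expression with which to check the labelled tissue.

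Sox proteins share the HMG box of the testis-determining factor SRY, which binds and bends DNA at short A/T-rich sites, and they direct cell fate in the gonad, cartilage, neural crest and endothelium. Klf and Sp proteins share a set of C2H2 zinc fingers at the C terminus that bind GC boxes and CACC boxes, common elements of promoters. Sp1 and its closest relatives are widely expressed, while many Klf genes respond to growth factors and hormones. COUP-TFII itself binds direct repeats of AGGTCA, and it has also been described as acting at GC boxes through Sp1.

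COUP-TFII peaks lay at most Klf/Sp genes and at a smaller share of Sox genes. At least 1 place was found at 21 of 25 Klf/Sp genes (84.0%) and at 10 of 18 Sox genes (55.6%), against 43.2% of all autosomal protein-coding genes. In the female list 17 Klf/Sp genes (68.0%) and 10 Sox genes had a peak, where 38.0% of all genes did. In the male list 20 Klf/Sp genes (80.0%) and 8 Sox genes (44.4%) had a peak, where 36.3% of all genes did. If noncoding genes could also take peaks, the male count for Sox genes was 5 (27.8%) against 32.9% of all genes, so that it no longer lay above all genes. A shared peak was found at 15 Klf/Sp genes (60.0%) and 7 Sox genes (38.9%), against 29.3% of all genes. With noncoding genes also taking peaks, it was found at 11 Klf/Sp genes (44.0%) and 5 Sox genes (27.8%). The share of all genes was then 26.2%, close to that of Sox genes. These are complete counts of small families and were not tested.

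**Figure D1:**
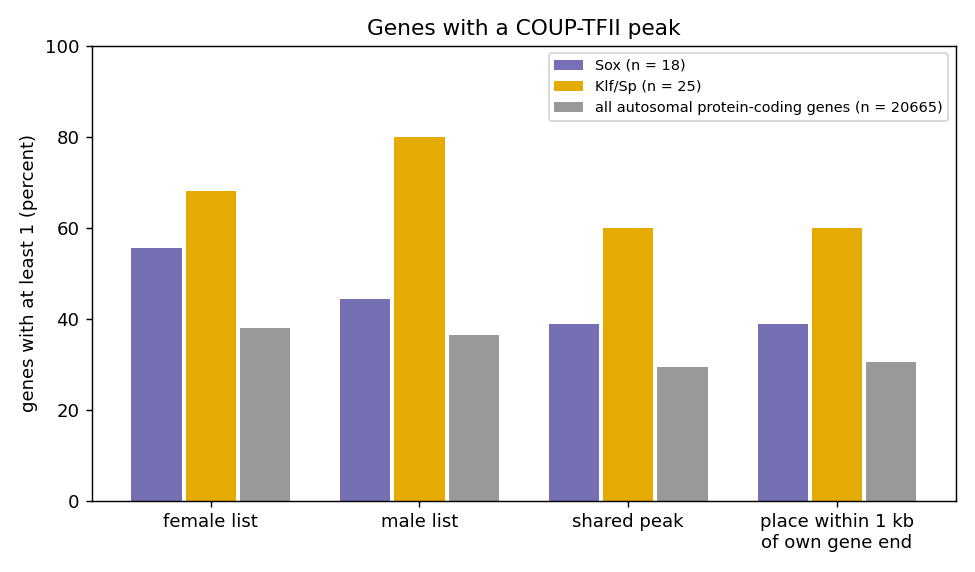
Percent of genes (vertical axis) with at least 1 female peak, male peak or shared peak, and with a place within 1 kb of an end of the own gene. Bars are the 18 Sox genes, the 25 Klf/Sp genes and all 20665 autosomal protein-coding genes; the Klf/Sp bars are the tallest of each group, at 60.0% to 80.0%.

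The families differ in how much genome they can collect peaks from. The length of genome whose peaks go to a given gene had a median of 140 kb for Sox genes and 81 kb for Klf/Sp genes, against 43 kb for all autosomal protein-coding genes. Per megabase of that stretch, Sox genes had 5.36 places, Klf/Sp genes 8.77 and all genes 7.05. For shared places the densities were 2.26 and 5.52 per megabase, against 4.0. Taken apart, Klf genes had 4.28 shared places per megabase and Sp genes 9.41. The Sox value rests on Sox5, Sox6 and Sox13, with 6 places in 1.98 megabases (3.03 per megabase). The other 15 Sox genes had 13 places, or 8.31 per megabase, above the value of all genes, and 3.83 shared places per megabase, below it.

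Sox5, Sox6 and Klf12 had the longest stretches, at 1154, 691 and 620 kb. Sox5 had 4 places, Klf12 had 2 and Sox6 had 1. At the short end, Sox12 had 2 places in 20 kb and Klf11 had 2 in 30 kb. Sox15 had the shortest stretch, 2 kb, and no place.

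**Figure D2:**
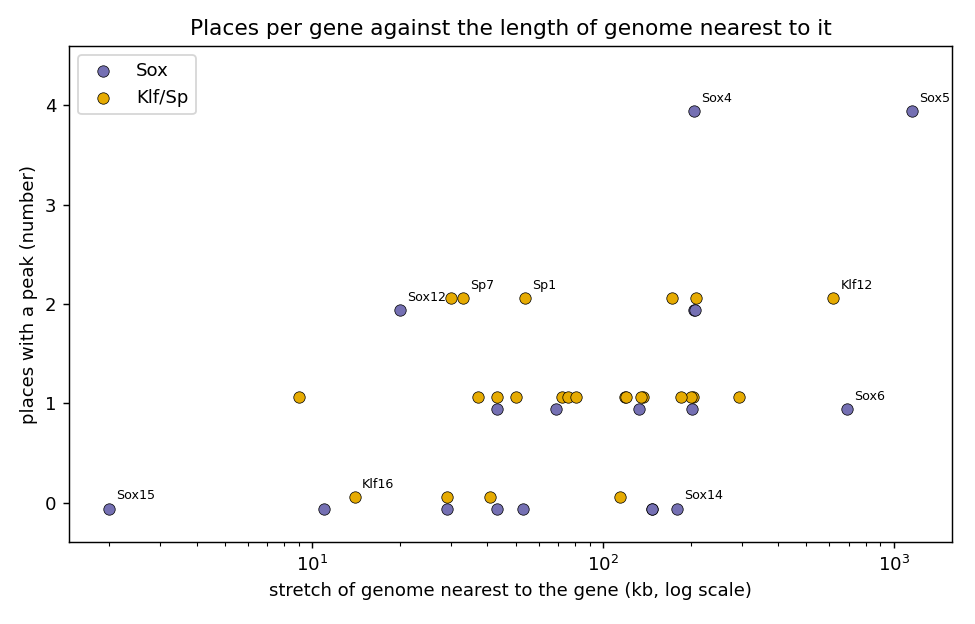
Number of places (vertical axis) against the length of genome nearest to each gene (kb, log scale), 1 point per gene and slightly offset by family. Sox4 and Sox5 have the most places, 4 each, at 205 and 1154 kb; genes without a place run from Sox15 at 2 kb to Sox14 at 180 kb.

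Sox genes had 16 female and 11 male peaks, which made 19 places: 8 shared, 8 female-only and 3 male-only. Klf/Sp genes had 21 female and 23 male peaks at 27 places: 17 shared, 4 female-only and 6 male-only. Shared places were therefore 42.1% of Sox places and 63.0% of Klf/Sp places, against 56.8% of the 12361 places at autosomal protein-coding genes. Female-only places were 42.1% of Sox and 14.8% of Klf/Sp places, against 25.6% over all genes. Male-only places were 15.8% and 22.2%, against 17.7%. Of the 8 female-only places of Sox genes, 3 were at Sox5 and 2 at Sox4. Without Sox5, Sox6 and Sox13, 4 of 13 Sox places were female-only. Within the Sp genes, 7 of 8 places (87.5%) were shared, and within the Klf genes 10 of 19 (52.6%), below the share of all genes. Counted by gene, 5 Sox and 4 Klf/Sp genes had a female-only place, against 13.3% of all genes, and 3 Sox and 5 Klf/Sp genes had a male-only place, against 9.89%. At 5 Sox and 6 Klf/Sp genes there were 2 or more places, where 11.6% of all genes had as many. At 3 Sox and 6 Klf/Sp genes none of the places was shared, a pattern of 13.9% of all genes.

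**Figure D3:**
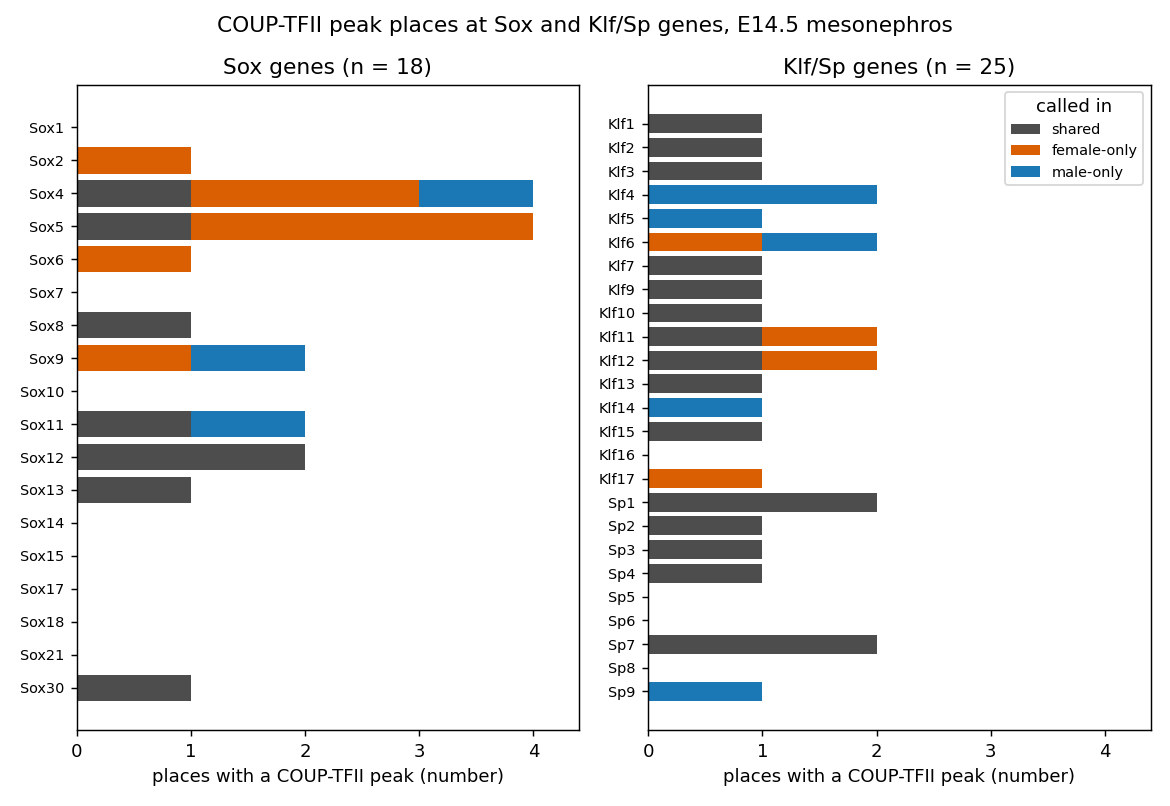
Number of places at each member (horizontal axis), divided into shared, female-only and male-only. Among Sox genes only Sox4 and Sox5 reach 4, while no Klf/Sp gene has more than 2; 8 Sox genes and 4 Klf/Sp genes have none.

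Near gene ends, Klf/Sp genes held more places than Sox genes. Within 1 kb of an end of the own gene lay 17 of 27 Klf/Sp places (63.0%) and 7 of 19 Sox places (36.8%), against 55.9% over all genes. With peaks up to 500 kb from the gene, the Klf/Sp share was 51.5% and no longer above that of all genes, 52.7%. A place of this kind was found at 15 Klf/Sp genes (60.0%) and 7 Sox genes (38.9%), where 30.5% of all genes had one. Of the 24 member places near an end, 21 were at genes whose strand is in the RefSeq promoter table, and all 21 were at the 5′ end. Over all genes with a known strand this held for 5460 of 5590 places near an end (97.7%). Another 6 Sox places and 4 Klf/Sp places lay deeper inside the gene, and 6 of each family lay over 1 kb outside, up to 83.8 kb away.

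The 1 kb limit divided some close cases. Just inside it were places of Sox12 (0.966 kb from the end), Sox30 (0.981 kb) and Sox4 (0.999 kb), and just outside it places of Sox11 (1.14 kb) and Sox12 (1.18 kb). At the 100 kb limit, the farthest place given to a member was that of Klf10 (83.8 kb), and the nearest place left out lay 117 kb from Klf14.

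**Figure D4:**
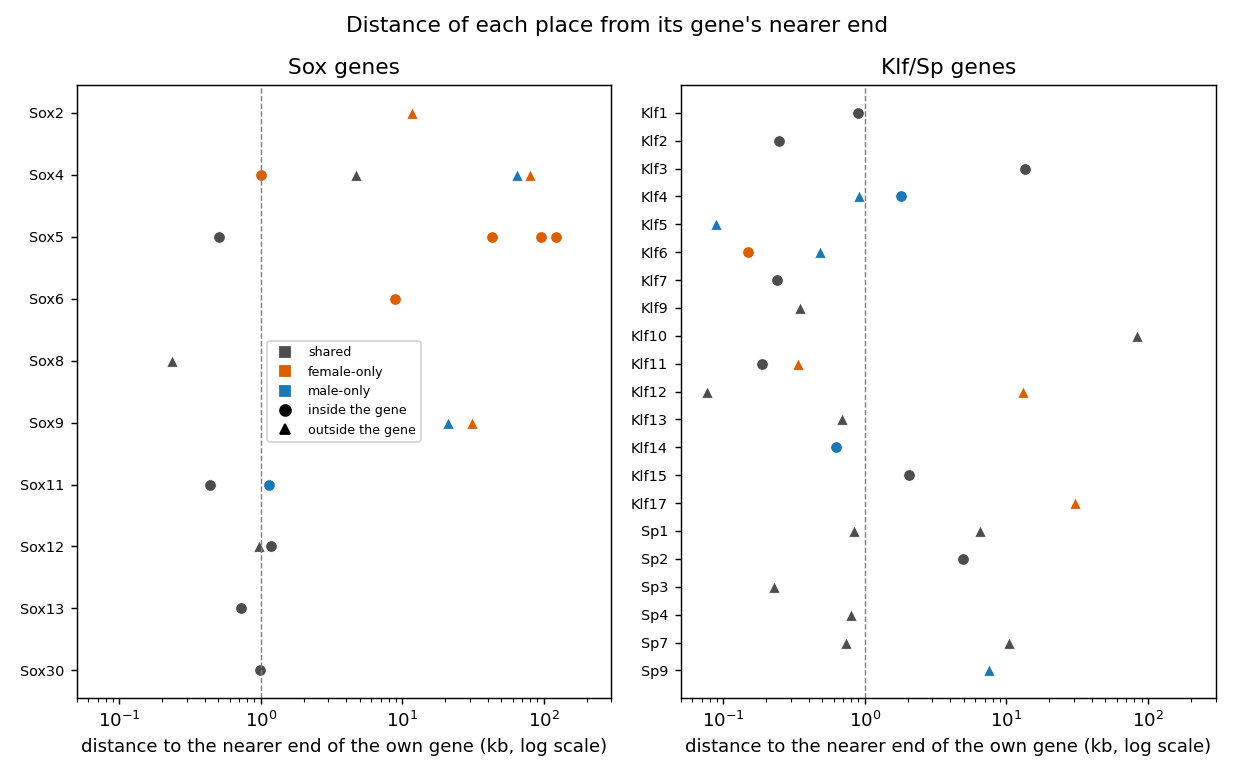
Distance from each place to the nearer end of its gene (kb, log scale), 1 row per member with a place; colour gives the list, circles lie inside the gene and triangles outside. The dashed line marks 1 kb: 17 Klf/Sp places and 7 Sox places lie to its left, and the 3 female-only places of Sox5 are deep inside the gene.

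Sequence could be set beside the peaks where RefSeq promoter windows (GRCm38.p6, the assembly of mm10) were given, which was the case for 32 of 43 members (13 Sox and 19 Klf/Sp, 42 windows). A window runs from 250 bases before a start site to 50 after it. A peak of either list reached into a window of Sox8, Sox30, Sp3, Sp2, Klf2, Klf9, Klf11 and Klf6, that is 8 of 42 windows (19.0%), against 24.9% of 20085 windows of all autosomal protein-coding genes. Of the 21 member places within 1 kb of a 5′ end, 13 (61.9%) did not reach a window of their gene, against 34.6% over all genes. Among the 13, the places of Klf12 and Sox5 could not reach one. The only start site with a window lay 136171 bases from the Klf12 place and 834678 bases from the Sox5 place. How often this held over all genes was not counted. The 250 bases before the start site are shown for those with peak bases there, 5′ to 3′ on the strand of the gene, with the bases under a COUP-TFII peak of the female or the male list in capitals. They show how far peaks reached toward the start site.
Sox8: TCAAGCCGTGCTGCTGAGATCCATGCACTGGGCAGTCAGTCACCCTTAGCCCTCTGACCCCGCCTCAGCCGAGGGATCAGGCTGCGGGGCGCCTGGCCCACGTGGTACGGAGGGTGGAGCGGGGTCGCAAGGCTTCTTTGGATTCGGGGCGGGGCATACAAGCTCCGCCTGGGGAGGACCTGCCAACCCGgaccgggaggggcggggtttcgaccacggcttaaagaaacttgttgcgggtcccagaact
Sox30: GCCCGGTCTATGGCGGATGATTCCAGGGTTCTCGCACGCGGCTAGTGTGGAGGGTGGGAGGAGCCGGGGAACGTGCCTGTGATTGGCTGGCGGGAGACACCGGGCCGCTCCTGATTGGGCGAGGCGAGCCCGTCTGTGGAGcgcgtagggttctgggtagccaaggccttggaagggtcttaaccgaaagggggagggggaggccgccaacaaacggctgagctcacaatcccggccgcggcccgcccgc
Sp3: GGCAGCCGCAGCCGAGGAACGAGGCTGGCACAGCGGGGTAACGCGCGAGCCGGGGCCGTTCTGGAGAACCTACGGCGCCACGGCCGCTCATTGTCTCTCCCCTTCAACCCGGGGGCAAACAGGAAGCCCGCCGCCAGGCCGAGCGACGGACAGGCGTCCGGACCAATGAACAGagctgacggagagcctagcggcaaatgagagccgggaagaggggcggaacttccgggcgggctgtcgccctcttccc
Sp2: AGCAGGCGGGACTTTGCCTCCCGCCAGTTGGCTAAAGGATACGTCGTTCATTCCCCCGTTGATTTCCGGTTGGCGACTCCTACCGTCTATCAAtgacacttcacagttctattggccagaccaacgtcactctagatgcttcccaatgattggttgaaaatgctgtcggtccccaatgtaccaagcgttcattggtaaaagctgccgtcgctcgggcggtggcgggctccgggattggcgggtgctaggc
Klf2: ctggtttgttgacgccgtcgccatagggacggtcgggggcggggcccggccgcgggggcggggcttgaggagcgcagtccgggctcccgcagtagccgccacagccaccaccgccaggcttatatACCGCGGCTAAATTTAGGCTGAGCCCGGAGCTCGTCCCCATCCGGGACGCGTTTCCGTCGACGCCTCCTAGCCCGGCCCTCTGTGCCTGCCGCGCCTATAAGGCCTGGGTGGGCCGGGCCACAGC
Klf9: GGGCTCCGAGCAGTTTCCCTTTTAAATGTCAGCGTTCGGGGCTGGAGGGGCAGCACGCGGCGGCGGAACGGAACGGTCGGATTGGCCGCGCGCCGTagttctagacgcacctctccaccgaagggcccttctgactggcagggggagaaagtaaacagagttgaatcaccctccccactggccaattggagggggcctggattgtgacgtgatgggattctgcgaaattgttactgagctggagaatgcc
Klf11: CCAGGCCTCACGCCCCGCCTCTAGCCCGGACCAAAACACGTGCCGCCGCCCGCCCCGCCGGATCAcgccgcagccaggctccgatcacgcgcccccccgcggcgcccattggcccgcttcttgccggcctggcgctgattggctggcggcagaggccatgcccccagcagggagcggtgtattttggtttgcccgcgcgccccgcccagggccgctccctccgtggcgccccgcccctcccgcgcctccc

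The Sox8 stretch is chr17:25570687-25570936 (minus strand), with 166 bases under the female and 190 under the male peak of its shared place. That of Sox30 is chr11:45980060-45980309 (plus strand), with 141 female and 140 male bases of a shared place. At Sp3 (chr2:72980447-72980696, minus strand) the shared place covered 173 bases by its female and 135 by its male peak. For Sp2 the stretch is chr11:96977689-96977938 (minus strand), before a start site within the gene, with 93 female and 57 male bases. At Klf2 (chr8:72318812-72319061, plus strand) only the male peak of the shared place reached the stretch, over 125 bases. Klf9 (chr19:23140976-23141225, plus strand) has 53 bases under the female and 96 under the male peak. The 65 capital bases of Klf11 (chr12:24651121-24651370, plus strand) belong to a female-only peak, and its shared place begins after the start site.

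Letters of the GC box, GGGCGG, occurred on either strand in 16 of 24 Klf/Sp windows (66.7%) and 8 of 18 Sox windows (44.4%), against 47.0% of all windows. Windows were counted here, not genes. Of the 18 Sox windows, 6 were from Sox6, and of these only chr7:116030998-116031297 held the GC box. Of all windows reached by a peak, 70.5% held it, and of the member windows reached 7 of 8 did. In the printed bases it stood under the peak once at Sox8 (bases 147 to 152) and 2 times at Klf11, as CCGCCC at bases 46 to 51 and 50 to 55, which overlap. The half-site AGGTCA was in 4 Sox windows and 1 Klf/Sp window, 5 of 42 (11.9%), against 14.7% of all windows. It was in none of the 8 member windows reached by a peak, against 14.3% of all windows reached by a peak. A direct repeat of the half-site with 1 base between the copies (DR1) was in no member window and in 0.0448% of all windows. A CACC box, CCACCC, was in 12 of 24 Klf/Sp windows and 3 of 18 Sox windows (16.7%), against 33.9% of all. The Sox core ACAAT was in 33.3% of windows of either family, against 26.8% of all. Sox6 windows were also among the Sox windows with AGGTCA and among those with ACAAT.

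Base composition was set beside these counts. Windows of members with a place had a median GC content of 63.2%, and windows of members without a place 58.5%. Over all autosomal protein-coding genes these medians were 61.3% and 52.7%. Klf/Sp windows followed this order, with 63.5% in 20 windows of genes with a place and 49.0% in 4 windows of genes without. Those 4 windows come from only 2 genes, 3 of them from Sp8. Sox windows had the reverse order, 55.3% in 14 windows against 65.8% in 4, and 6 of those 14 windows are from Sox6 alone. The part of GC content in the counts above was not tested.

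The SoxC genes Sox4, Sox11 and Sox12, factors of progenitor and mesenchymal cells, had a shared peak at 3 of 3 members, against 29.3% of all genes, and 8 places in all. Sox4 (gene 20677, chromosome 13, 28948919 to 28953699) had 3 female and 2 male peaks. Its shared place, chr13:28958245-28958544, lay 4.70 kb outside the gene on the 5′ side, with female and male centres 5 bp apart. A female-only place lay inside the gene (chr13:28952551-28952850), and another female-only place 80.2 kb and a male-only place 64.6 kb outside it. The 3 one-list places of Sox4 had no peak of the other list nearer than 5.69 kb. All 4 lay inside annotated genes that are not protein-coding. Sox4 had no shared and no male peak if noncoding genes could also take peaks. At 4 places Sox4 was among the 3.26% of autosomal genes with 3 or more.

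Sox11 (gene 20666, chromosome 12, 27334268 to 27342718) had 1 female and 2 male peaks. The shared place (chr12:27342131-27342430) lay inside the gene 0.438 kb from the 5′ end, with centres 15 bp apart, and a male-only place (chr12:27341432-27341731) lay 0.699 kb from it. Sox12 (gene 20667, chromosome 2, 152393611 to 152398046) had 2 shared places, 1 on each side of its start. The place at chr2:152398863-152399162 lay 0.966 kb before the 5′ end, and that at chr2:152396716-152397015 lay 1.18 kb into the gene. Their female and male centres were 22 and 12 bp apart. Sox12 was the only Sox gene with more than 1 shared place.

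The SoxD genes Sox5, Sox6 and Sox13, whose proteins lack a transactivation domain and of which Sox5 and Sox6 act with Sox9 in cartilage, had 6 places. Sox5 (gene 20678, chromosome 6, 143828425 to 144782287) had 4 female peaks and 1 male peak. The shared place, chr6:144781635-144781934, lay 0.503 kb from the 5′ end with centres 13 bp apart. The other 3 Sox5 places were female-only and lay 42.8, 94.8 and 123 kb from the nearer end, deep inside the gene. They lay at chr6:143871081-143871380, chr6:143923120-143923419 and chr6:144659521-144659820, and the nearest male peak was at least 122 kb away from each. Sox6 had a female-only place inside the gene, 8.85 kb from its 5′ end and 879 bases before a RefSeq start site within the gene. Sox13 (gene 20668, chromosome 1, 133382300 to 133424459) had 1 shared place (chr1:133423586-133423885), 0.724 kb inside its 5′ end, with centres 37 bp apart.

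Of the SoxE genes, Sox8 (gene 20681, chromosome 17, 25565893 to 25570686) had 1 shared place (chr17:25570771-25571070), centred 0.234 kb before its start, in the stretch printed above. Sox8 is expressed in Sertoli cells of the fetal testis beside Sox9. Sox9, which drives Sertoli cell and cartilage fate, had no shared place and none within 1 kb of an end. It had a male-only place 20.9 kb and a female-only place 31.1 kb outside the gene, 10.1 kb apart. Sox10, a neural crest factor, had no place, and the nearest, 13.5 kb away, had gone to Polr2f.

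Among the other Sox genes only Sox2 and Sox30 had a place. Sox30, known from male germ cells (gene 214105, chromosome 11, 45979069 to 46017992), had 1 shared place (chr11:45979901-45980200) whose female and male centres were 1 bp apart, the smallest distance among members. The place was centred 260 bases before a RefSeq start site within the gene. Sox2, a factor of pluripotent and neural progenitor cells, had a female-only place 11.7 kb outside the gene, within the noncoding gene Sox2ot. No place was found at the SoxF genes of the endothelium (Sox7, Sox17 and Sox18), at the neural genes Sox1, Sox14 and Sox21, or at Sox15. For Sox1, Sox14 and Sox17 the nearest place of any gene lay 203, 244 and 192 kb away. At Sox18, Sox7 and Sox21 it lay 68.7, 83.4 and 95.8 kb away and was nearer to another gene.

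The Sp1-like genes Sp1, Sp2, Sp3 and Sp4, whose proteins act at GC-rich promoters, had shared peaks at 4 of 4 members, where 29.3% of all genes had one. Sp1 (gene 20683, chromosome 15, 102406316 to 102436404) had 2 shared places, chr15:102405335-102405634 at 0.832 kb and chr15:102399641-102399940 at 6.53 kb before its start. Sp3 (gene 20687, chromosome 2, 72936430 to 72980446) had 1 (chr2:72980524-72980823), centred 0.227 kb before its start. If noncoding genes could also take peaks, Sp3 had no shared peak. Sp4 (gene 20688, chromosome 12, 118231686 to 118301440) had 1 (chr12:118302087-118302386), 0.796 kb before its start. The single shared place of Sp2 lay 4.96 kb inside the gene, 307 bases before the internal start site of the printed stretch. None of these 4 genes had a peak in only 1 list.

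Of the Sp5-like genes, which are expressed in restricted embryonic tissues, 1 of 5 (20.0%) had a shared peak, against 29.3% of all genes. Sp7, the osteoblast factor also called osterix (gene 170574, chromosome 15, 102356603 to 102367035), had 2 shared places. The place at chr15:102355720-102356019 lay 0.734 kb outside the gene and that at chr15:102377267-102377566 lay 10.4 kb outside. Sp9 had a male-only place 7.52 kb before its start, and Sp5, Sp6 and Sp8 had none. Several Sp genes are neighbours in the genome. Sp1 and Sp7 are 39.3 kb apart with no protein-coding gene between them, and their 4 shared places fell within 49.9 kb. Next to Sp2, Sp6 (30.6 kb away) had no place. Sp8 (545 kb from Sp4) had none either. Sp3 and Sp9 are 291 kb apart, with Ola1 between them.

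All 6 Klf genes of the activator group had a place, and all 6 had one within 1 kb of an end, where 43.2% and 30.5% of all genes did. Shared places were found at 3 of them, against 29.3% of all genes. Klf1, the erythroid factor (gene 16596, chromosome 8, 84901982 to 84905291), had a shared place at chr8:84902731-84903030, 0.898 kb inside its 5′ end. Klf2, an endothelial factor (gene 16598, chromosome 8, 72319062 to 72321654), had a shared place at chr8:72319160-72319459, 0.247 kb inside. Its male peak was centred 24 bp from the start. The female and male centres were 223 bp apart, the largest distance among the 25 shared member places, whose median was 30 bp. Over all autosomal protein-coding genes that median was 33 bp. The Klf2 pair did not count as shared under either stricter rule, at least 50% of each peak or centres within 100 bp. Klf7 (gene 93691, chromosome 1, 64029448 to 64122345) had a shared place at chr1:64121956-64122255, 0.24 kb inside.

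The other Klf genes of this group had peaks in 1 list at each place. Klf4, one of the reprogramming factors (gene 16600, chromosome 4, 55527137 to 55532475), had 2 male peaks and no female peak. They lay at chr4:55533228-55533527, 0.902 kb before the start, and at chr4:55530542-55530841, 1.78 kb into the gene, and the nearest female peak was at least 106 kb from each. Klf5, a factor of epithelia and smooth muscle (gene 12224, chromosome 14, 99298691 to 99313412), had a male-only place centred 0.089 kb outside an end (chr14:99298453-99298752), with the nearest female peak 156 kb away. Klf6 (gene 23849, chromosome 13, 5861489 to 5870393) had a male-only place (chr13:5860856-5861155) and a female-only place (chr13:5861489-5861788) on either side of its start, 0.633 kb apart. With peaks within 1 kb of each other taken as shared, those at Klf6 counted as a shared pair, and those at Klf4 and Klf5 did not.

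Among the Klf genes whose proteins bind Sin3, 4 of 6 had a shared peak, against 29.3% of all genes. Klf9, a factor that acts with the progesterone receptor in the uterus (gene 16601, chromosome 19, 23141226 to 23168129), had a shared place (chr19:23140729-23141028) centred 0.348 kb before its start. Klf11 (gene 194655, chromosome 12, 24651371 to 24662782), a TGF-beta-inducible factor, had a shared place 0.186 kb inside (chr12:24651408-24651707) and a female-only place 0.336 kb before its start (chr12:24650886-24651185). Klf13 (gene 50794, chromosome 7, 63886351 to 63938915) had a shared place (chr7:63939457-63939756) 0.691 kb before its start. Klf10, another TGF-beta-inducible factor, had a shared place 83.8 kb outside the gene and none nearer. Klf10 had no shared peak with peaks taken up to 10 kb, or if noncoding genes could also take peaks. Klf14, an imprinted gene (gene 619665, chromosome 6, 30956021 to 30958990), had a male-only place 0.625 kb inside an end (chr6:30958216-30958515), and Klf16 had no place.

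Both autosomal CtBP-binding Klf genes had a shared peak, against 29.3% of all genes. That of Klf12 (gene 16597, chromosome 14, 99866181 to 100285891) was centred 0.076 kb before the 5′ end of the gene (chr14:100285818-100286117), and a female-only place lay 13.1 kb outside. The shared place of Klf3 lay 13.4 kb into the gene. When noncoding genes could also take peaks, neither Klf12 nor Klf3 had a shared peak. Klf3 also had none when peaks went to the nearest gene end. Klf15, a metabolic regulator, had a shared place 2.06 kb inside its 5′ end, 530 bases after a RefSeq start site. Klf17 had a female-only place 30.6 kb before its start.

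Some members had a peak in 1 list and none in the other. The male list alone had a peak at Klf4, Klf5, Klf14 and Sp9, 4 of 25 Klf/Sp genes and 0 of 18 Sox genes, where 5.41% of all genes had this pattern. Only the female list had a peak at Sox2, Sox6 and Klf17, 2 of 18 Sox and 1 of 25 Klf/Sp genes, against 7.04% of all genes. At Sox9 and Klf6 both lists had a peak but none was shared. Whether the missing peaks were absent or below threshold cannot be told apart in lists without signal values.

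Noncoding genes overlapped some of the places. Of 19 Sox places, 7 (36.8%) lay inside an annotated gene that is not protein-coding, at Sox2, Sox4, Sox8 and Sox9. For Klf/Sp genes this held for 5 of 27 places (18.5%), and over all genes for 11.1%. When noncoding genes could also take peaks, Sox genes had 12 places, with a female peak at 7 genes and a male peak at 5, and Klf/Sp genes had 19 places. Named neighbours at Klf/Sp places were Sp3os, within which the Sp3 place lay, and the noncoding genes Gm12506 at Klf4, Gm35880 at Klf7, Gm41231 at Klf12 and Gm31684 at Klf3. Each of the last 4 had an end within 1 kb of the place, as had Gm36246 at an Sp7 place, Cerox1 at the Sox8 place and Sox6os at the Sox6 place.

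Related genes were counted in the same way and are set beside the same shares of all genes, 43.2% with a place and 29.3% with a shared one. HMG-box genes of the Tcf/Lef family, the DNA-binding partners of beta-catenin, had a shared peak at 3 of 4 members: Tcf7l1, Tcf7l2 and Lef1, but not Tcf7. Tcf7l1 and Tcf7l2 had 3 places each. Of 5 zinc finger genes of the Egr and Wt1 group, Egr1 and Egr3 had 1 shared peak each and Egr2, Egr4 and Wt1 had no place. All 9 genes of cofactors used by Klf/Sp proteins had a place, and 4 had a shared one: Ep300 with 2, and Crebbp, Hdac1 and Hdac2 with 1. Of 7 cartilage matrix genes that Sox9, Sox5 and Sox6 activate, only Comp had a place, female-only and 9.34 kb outside the gene.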

How the data were processed

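COUP-TFII ChIP-seq peaks of XX and XY mesonephroi were used as deposited. Positions, with no score or other value, are as the authors deposited them, in 1 list per sex that the labels of both replicates name. Per the submitters' processing notes reads were handled with HOMER 4.10.3, Bowtie 1.2, bedtools 2.24.0, Picard and cutadapt on build mm10, roles not stated. How peaks were thresholded and replicates joined is not given in the sources used here. Input and signal tracks were not analysed here. Peaks were given to genes of the RefSeq table for GRCm38.p6 with Python 3.11.15 and pandas 2.3.3, without genes of the mitochondrion. Strand and start sites came from the RefSeq promoter table. Length nearest to a gene was read at positions every 1000 bp. Shared counts and distances were checked against bedtools 2.31.1 and gave the same 7483 shared peaks, and the assignment was tested on simulated data. Members with at least 3 places, or with a place within 1 kb of an end, were described with positions. The members and lists were chosen with earlier results of these data known. No test was run, since there is 1 list per sex. Alternatives were other rules for a shared peak, other distances, the nearest gene end, genes of any kind and ends within 2.5 kb.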

Additional observations from a re-analysis of the deposited data

How the results depend on the processing

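The number of Klf/Sp genes with a shared peak ran from 11 to 17 over the alternatives (15 as reported) and that of Sox genes from 5 to 8 (7 as reported), while 25.5% to 30.6% of all autosomal protein-coding genes had one. With the nearest gene of any kind, Sox genes with a male peak went from 8 to 5 (27.8%, against 32.9% of all genes, where 44.4% stood against 36.3%) and Sox places from 19 to 12, since noncoding genes took the rest. Under the same rule 27.8% of Sox genes had a shared peak, against 26.2% of all genes. With 500 kb the Klf/Sp share of places within 1 kb of an end was 51.5% against 52.7% of all. The other family counts stayed within 1.5 times under each alternative run. With the nearest gene of any kind 26 of 129 counts per gene moved by more, against 12 with 10 kb, 15 with 500 kb and 3 with the nearest gene end. Each other rule for shared peaks moved 1 of 43. A stricter threshold could not be tried, because the lists have no score, and leaving out a replicate was not possible. No paired analysis was possible because each sex has 1 list over both replicates. The depth is unknown, so a place in 1 list only may be a matter of depth.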

Other observations

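Sox3 and Klf8, on the X chromosome and outside the autosomal members, had no peak in either list. Beyond 100 kb, 11 more places had a member as their nearest protein-coding gene. Sox11 had 3 of them, at 194 to 539 kb outside the gene, 1 shared and 2 female-only. Klf4, whose places near the gene were both male-only, had a shared place 119 kb outside it, and Klf14 had one 117 kb outside. Single shared places lay 184 kb from Sp3, 254 kb from Sox6 and 335 kb from Sox4. Single female-only places lay 127 kb from Klf7, 173 kb from Klf12 and 190 kb from Klf6. At Sox10, Sox15 and Klf16, which had no place, 5, 4 and 5 places lay within 100 kb but nearer to other genes.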
